A study of Homo sapiens with 6 samples.

Results

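Lamins and the membrane proteins that anchor them were followed as 10 genes, taken by symbol from the 63129 genes of the FPKM table. They are the lamin genes LMNA, LMNB1 and LMNB2, the lamin B receptor gene LBR, the SUN genes SUN1 and SUN2, the nesprin genes SYNE1 and SYNE2, TMPO and BANF1. For 9 of them the table held 1 value a library. The row of SYNE2 held 12 values that its headers did not assign, so SYNE2 was not analysed here.

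RNA was sequenced from ERRAS cells, which are human fetal lung fibroblasts of the line IMR90 with a stable transgene, an H-RasV12 joined to the hormone-binding part of the estrogen receptor, that tamoxifen switches on. Control libraries (n = 3) came from uninduced ERRAS cells, which carry the same construct. Ras-induced libraries (n = 3) came from cells given 100 nM tamoxifen, per the sample labels, for 4 days. The study's general methods give another amount, as a mass concentration of 4-hydroxytamoxifen, so the dose behind these libraries is uncertain. DME at 1 μM, which blocks the spindle kinesin Eg5, arrested both groups in mitosis, and detached cells with a mitotic index above 90% were collected, so each value describes arrested mitotic cells. Unsynchronized cells were not analysed here.

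The lamina is a meshwork of intermediate filaments under the inner nuclear membrane, built from A-type lamins (LMNA) and B-type lamins (LMNB1, LMNB2). LBR, TMPO and the SUN proteins sit in that membrane, and the SUN proteins join nesprins across the envelope into the LINC complex, which ties the nucleus to the cytoskeleton. At mitotic entry the lamina is taken apart by phosphorylation and the envelope breaks down, and it is rebuilt on chromatin at mitotic exit. A low level of lamin B1 is widely used as a marker of senescent cells.

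In Ras-induced mitotic cells the transcripts of both B-type lamins, of LBR, of SUN2 and of TMPO fell, LMNB1 the most, to 49.8% of its control level. LMNA and SUN1 were lower in every Ras-induced library than in any control library, but their differences did not pass the test. SYNE1 and BANF1 overlapped between the groups. With limma on log2(FPKM + 1) and Benjamini-Hochberg adjustment over the 13993 genes whose mean reached 1 FPKM, 5 of the 9 genes were altered (adjusted p at or under 0.05), all 5 of them lower. Among all tested genes 16.7% were altered, 5.67% lower and 11.0% higher. At an unadjusted p under 0.05 from limma, 7 of the 9 were lower and 0 were higher, where 33.6% of all tested genes passed that threshold, 10.7% lower and 22.9% higher. The median log2 fold change of the 9 genes was -0.59, beside a median of 0.10 over all tested genes. RNA from mixed cells cannot tell fewer cells with a transcript from less of it in each cell.

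**Figure D1:**
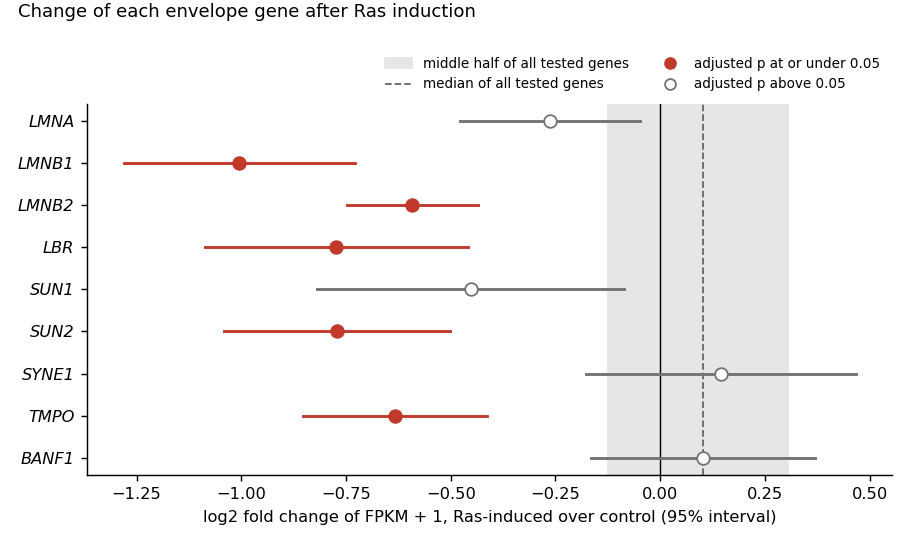
Log2 fold change of FPKM + 1, Ras-induced over control, for the 9 genes (points) with 95% intervals from limma (lines), filled red where the adjusted p was at or under 0.05. The dashed line marks the median of all tested genes at 0.10 and the grey band runs between the quartiles of all tested genes, from -0.12 to 0.30. LMNB1 lies farthest left at -1.005, and SYNE1 and BANF1 lie inside the band.

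The promoters of 3 of the genes that fell are shown with the short motifs named for cell-cycle promoters, as RefSeq gives them for GRCh38.p14, a later build than that of the expression data. LBR and LMNB2, which also fell, are not shown. Each promoter printed is that of the listed start with the most matches, or the first of those that tied. Each runs 5′ to 3′ on the gene's strand from 150 bases before a start site to 50 after it. Capitals mark CCAAT, its reverse complement ATTGG, and TTCAAA, the reverse complement of TTTGAA. LMNB1 is at chr5:126776986-126777185, TMPO at chr12:98515423-98515622 and SUN2 at chr22:38755949-38756148.
LMNB1: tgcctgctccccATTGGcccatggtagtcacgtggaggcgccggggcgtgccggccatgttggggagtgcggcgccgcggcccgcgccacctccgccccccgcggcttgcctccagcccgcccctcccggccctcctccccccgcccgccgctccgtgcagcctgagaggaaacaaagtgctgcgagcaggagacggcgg
TMPO: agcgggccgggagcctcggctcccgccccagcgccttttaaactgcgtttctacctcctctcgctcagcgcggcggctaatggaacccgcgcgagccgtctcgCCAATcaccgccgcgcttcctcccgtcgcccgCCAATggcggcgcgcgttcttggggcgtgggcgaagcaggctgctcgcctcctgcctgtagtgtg
SUN2: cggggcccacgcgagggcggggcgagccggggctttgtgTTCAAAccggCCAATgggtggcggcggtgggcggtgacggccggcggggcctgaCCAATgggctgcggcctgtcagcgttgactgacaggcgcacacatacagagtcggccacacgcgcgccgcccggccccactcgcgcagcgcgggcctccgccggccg

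Of the 10 genes, 9 matched the promoter table by symbol and SUN1 did not. Windows of 300 bases, both strands, were searched for CCAAT, for TTTGAA or TTCGAA (the cell cycle homology region) and for TTTCCCGC or TTTGGCGC (E2F). These were found in 34.6%, 16.4% and 2.27% of all 35116 promoters. TMPO had CCAAT at 2 positions before each of its 2 listed starts, at -47 and -15 from the first. SUN2 had CCAAT at -101 and -57 and TTTGAA at -111 on the other strand, at 1 of its 3 starts. LMNB1 had CCAAT at -138 on the other strand at 1 of 2 starts, and LMNB2 had TTTGAA at -246 at its only start. LMNA had CCAAT at -146 and the only E2F match of the 9 genes at -23, at 1 of its 3 starts. CCAAT was also found at 1 of 4 starts of SYNE1, which was not altered, and at 1 of 3 starts of SYNE2. The windows of LBR and BANF1 held none of these letters. A match is a description of the letters and was not tested as a binding site. The matches of the 9 genes were not tested against the shares of all promoters.

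LMNB1 (ENSG00000113368, chr5:126112315-126172712 of GRCh37) encodes lamin B1. It stood at 174, 182 and 211 FPKM in the control libraries and 81.8, 102 and 97.7 FPKM in the Ras-induced libraries. Its highest Ras-induced value lay well below its lowest control value. The log2 fold change was -1.005 (95% interval -1.28 to -0.73, adjusted p = 0.00424 from limma), from 189 ± 19.3 to 93.7 ± 10.5 FPKM (SD, n = 3). It was the only one of the 9 genes to change by at least 1 on the log2 scale.

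LMNB2 (ENSG00000176619, chr19:2427636-2456957 of GRCh37, minus strand) encodes lamin B2. Its levels were 192, 186 and 195 FPKM in control and 123, 130 and 127 FPKM in Ras-induced cells. The libraries of each group lay close together, and the groups were far apart. It fell by 0.59 on the log2 scale (95% interval of the log2 fold change -0.75 to -0.44, adjusted p = 0.00384 from limma), to 66.4% of control.

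LMNA (ENSG00000160789, chr1:156052364-156109872 of GRCh37) encodes lamins A and C, which a value per gene does not separate. It was the most abundant of the 9 genes in both groups, at 519, 553 and 513 FPKM in control and 412, 489 and 423 FPKM in Ras-induced cells. The groups did not overlap, although the second Ras-induced library came near the lowest control. The log2 fold change of -0.26 (95% interval -0.48 to -0.05) did not pass (adjusted p = 0.0934 from limma). After quantile normalization it was -0.28 and passed (adjusted p = 0.0182 from limma), as it did after upper-quartile scaling at -0.37 (adjusted p = 0.0336 from limma). Over all 14 alternatives the adjusted p of LMNA ran from 0.0182 to 0.260.

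The proportions of the 3 lamins were compared within each library, where the scaling of the libraries has no part. LMNA made up 58.6%, 60.0% and 55.9% of the summed lamin FPKM in control and 66.8%, 67.9% and 65.4% in Ras-induced libraries. LMNB1 made up 19.6%, 19.8% and 22.9%, against 13.3%, 14.1% and 15.1%. The sum itself averaged 908 FPKM in control libraries, with an SD of 19.9, and 661 FPKM after Ras induction, with an SD of 53.2 (n = 3 each).

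The ratio of LMNA to LMNB1 was 2.99, 3.03 and 2.43 in control and 5.03, 4.80 and 4.33 in Ras-induced libraries. It rose by 0.74 on the log2 scale (standard error 0.12), with no overlap. LMNA to LMNB2 went from 2.77 ± 0.180 to 3.49 ± 0.244 (SD, n = 3), also without overlap. LMNB1 to LMNB2 was near even in control, at 0.903, 0.981 and 1.08, and was 0.665, 0.785 and 0.772 after Ras induction. Each of these 3 ratios gave an exact two-sided permutation p = 0.1, the smallest that 3 libraries against 3 allow, and 0.15 after adjustment over the 6 ratios tested. A change in a ratio shows that 2 transcripts changed unequally and does not show that either was constant.

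**Figure D2:**
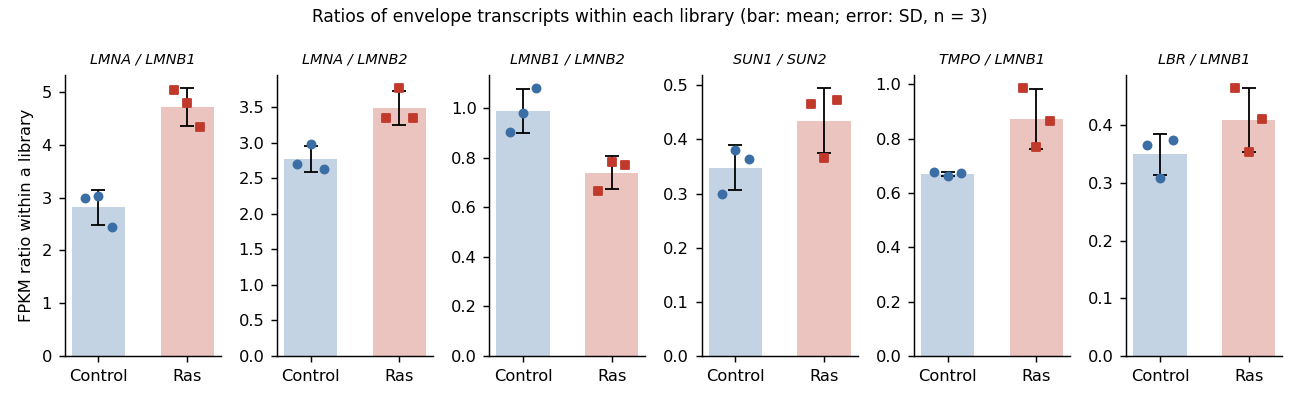
FPKM ratios of gene pairs within each library (points), with the mean (bar) and SD (error bar) of 3 control (blue) and 3 Ras-induced (red) libraries, on linear axes from 0. The ratio of LMNA to LMNB1 is 2.43 to 3.03 in control and 4.33 to 5.03 in Ras-induced libraries.

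LBR (ENSG00000143815, chr1:225589204-225616627 of GRCh37, minus strand) encodes an inner membrane protein that binds B-type lamins and heterochromatin and has a sterol reductase domain. It measured 63.4, 56.2 and 79.0 FPKM in control and 37.9, 35.9 and 40.1 FPKM in Ras-induced cells. The third control library was high, and the Ras-induced libraries varied little. LBR fell by 0.77 on the log2 scale (standard error 0.13, adjusted p = 0.0129 from limma), to 58.5% of control. The call was lost without any 1 of 4 libraries. Its adjusted p from limma was 0.0517 without the first control library and 0.0582, 0.0501 and 0.0513 without Ras-induced libraries 1, 2 and 3 in turn, with fold changes between -0.81 and -0.73 on the log2 scale. It was kept without control libraries 2 and 3, at 0.0306 and 0.0186. The ratio of LBR to LMNB1 overlapped between the groups (0.349 ± 0.0362 and 0.409 ± 0.0555, SD, n = 3, exact permutation p = 0.3).

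Of the 3 LINC complex genes with values, 1 was altered, and it was lower, beside 5.67% of all tested genes. SUN2 (ENSG00000100242, chr22:39129295-39190148 of GRCh37, minus strand) encodes an inner membrane protein that binds nesprin tails in the space between the membranes. Its values were 196, 180.0 and 237 FPKM in control and 115, 125 and 117 FPKM after Ras induction. Every Ras-induced value was far under the control values. It fell by 0.77 on the log2 scale (standard error 0.11, adjusted p = 0.00856 from limma), to 58.5% of control.

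SUN1 (ENSG00000164828, chr7:856252-936072 of GRCh37), the other widely expressed SUN gene, measured 58.9, 68.4 and 86.5 FPKM in control and 53.5, 45.4 and 55.1 FPKM in Ras-induced cells. The controls were spread, and the lowest of them was close to the highest Ras-induced library. SUN1 overlaps GET4 on the same strand, which was listed at 18.98 to 25.34 FPKM over the 6 libraries, and reads of the overlap may be split between them. The log2 fold change was -0.45 with a wide 95% interval of -0.82 to -0.09 (adjusted p = 0.0908 from limma, and above the threshold in all 14 alternatives). Between the paralogs themselves the difference was not resolved. The ratio of SUN1 to SUN2 was 0.3001, 0.380 and 0.364 in control and 0.466, 0.365 and 0.473 in Ras-induced libraries, which overlap (exact permutation p = 0.2, difference of 0.32 on the log2 scale with a standard error of 0.16).

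SYNE1 (ENSG00000131018, chr6:152442822-152958936 of GRCh37, minus strand, 146 exons in its canonical transcript) encodes nesprin-1, a giant protein that links SUN proteins to actin. It was the least abundant of the 9, at 10.7, 10.7 and 7.89 FPKM in control and 11.7, 10.4 and 10.3 FPKM in Ras-induced cells. The groups overlapped. The log2 fold change was 0.15 with a 95% interval of -0.18 to 0.47 (adjusted p = 0.485 from limma), so neither a modest fall nor a modest rise was resolved. Its gene overlaps ESR1 on the opposite strand, at 1.5 to 3.5 FPKM in all 6 libraries. The kit used does not mark strand, so reads of the overlapping stretch cannot be told apart.

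TMPO (ENSG00000120802, chr12:98909357-98944129 of GRCh37) encodes the LAP2 proteins, LEM-domain proteins of which some lie in the inner membrane and bind B-type lamins and others are nucleoplasmic and bind A-type lamins. Its isoforms were not separated in the values. It measured 117, 121 and 142 FPKM in control and 80.7, 78.1 and 84.3 FPKM in Ras-induced cells, with a clear gap between the groups. It fell by 0.63 on the log2 scale (standard error 0.09, adjusted p = 0.00841 from limma), to 64.5% of control. TMPO to LMNB1 was nearly constant in control, at 0.676, 0.663 and 0.672, and was 0.987, 0.768 and 0.864 after Ras induction (exact permutation p = 0.1), without overlap.

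BANF1 (ENSG00000175334, chr11:65769699-65771620 of GRCh37) encodes BAF, a small DNA-binding protein that LEM-domain proteins hold and that gathers chromosomes into 1 nucleus at mitotic exit. Its levels were 133, 144 and 112 FPKM in control and 128, 149 and 140 FPKM in Ras-induced cells, and the groups overlapped. The log2 fold change was 0.10 with a 95% interval of -0.16 to 0.37 (adjusted p = 0.555 from limma). After upper-quartile scaling its sign turned, at -0.0066. The processed pseudogene BANF1P3 was listed at 8.55 to 18.6 FPKM, and reads could be split between the copies.

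**Figure D3:**
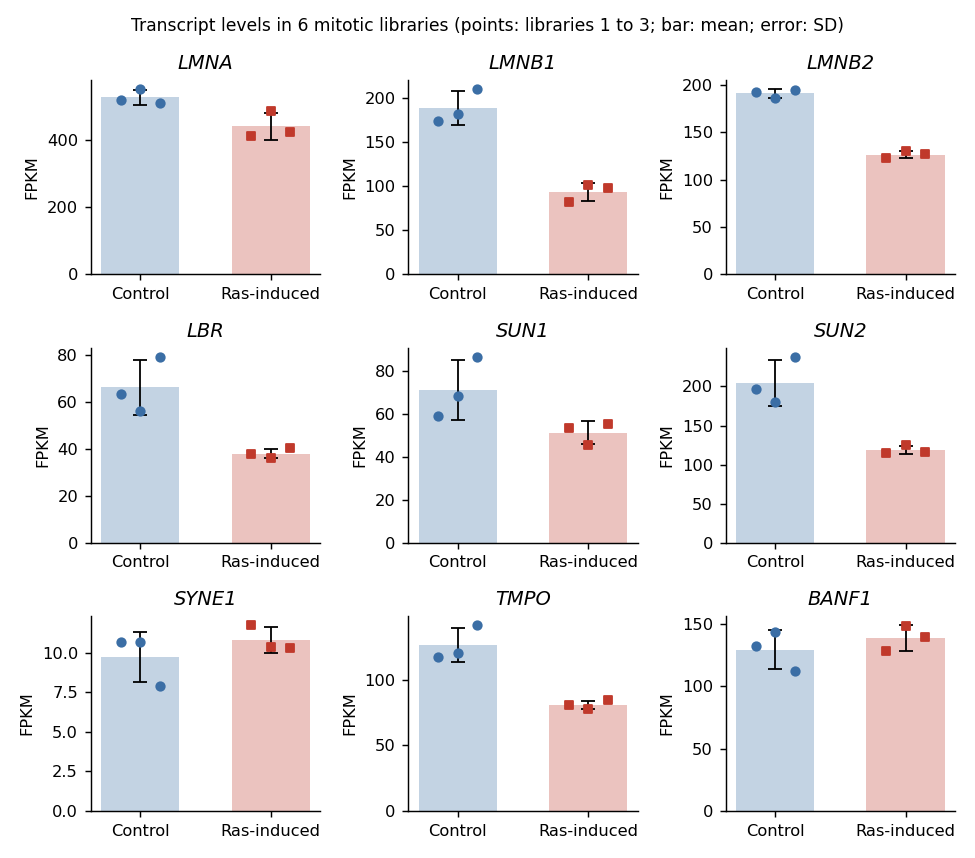
FPKM of the 9 genes in 3 control (blue circles) and 3 Ras-induced (red squares) mitotic libraries, with the mean (bar) and SD (error bar), on linear axes from 0. LMNB1 goes from 189 to 93.7 FPKM on average, and SYNE1 and BANF1 overlap between the groups.

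FPKM is scaled for transcript length, so levels can be ordered between genes, but only roughly. Isoforms were not resolved, and some of the genes share sequence or position with others. In control cells LMNA led with 528 ± 21.6 FPKM (SD, n = 3), above the other 8 genes in every library. SUN2, LMNB2 and LMNB1 followed at 205, 191 and 189 FPKM, with ranges over libraries that overlapped from each to the next, then BANF1 and TMPO at 129.6 and 127 FPKM, also overlapping. SUN1 and LBR, at 71.3 and 66.2 FPKM, overlapped each other, and SYNE1 was lowest at 9.74 FPKM. In Ras-induced cells the order changed below LMNA. BANF1 came next at 139 FPKM, then LMNB2 at 126 and SUN2 at 119, each overlapping the next, followed by LMNB1 at 93.7 FPKM, which overlapped TMPO at 81.0. SUN1, LBR and SYNE1 came last, at 51.3, 38.0 and 10.8 FPKM, each apart from the next.

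Between the groups, 7 of the 9 genes had no overlap of libraries, all 7 lower after Ras induction, where 39.9% of all tested genes did not overlap in either direction. The same 7 genes had no overlap after quantile normalization, upper-quartile scaling and median centring, beside 37.8%, 36.6% and 37.5% of all tested genes. Of the 5 altered genes, LMNB1, LMNB2, SUN2 and TMPO passed in all 14 alternatives, with log2 fold changes from -1.11 to -0.91, -0.70 to -0.57, -0.88 to -0.66 and -0.74 to -0.55, in that order of genes.

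**Figure D4:**
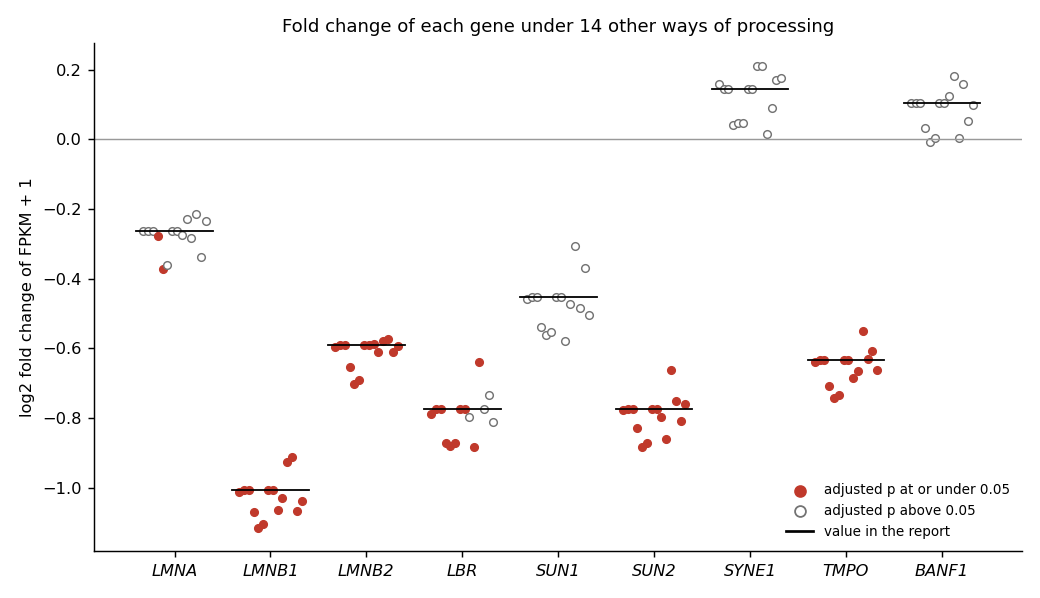
Log2 fold change of FPKM + 1, Ras-induced over control, for the 9 genes under 14 other ways of processing (points, red where the adjusted p was at or under 0.05), with the reported value as a black line. The points of LMNB1, LMNB2, SUN2 and TMPO are all red and below 0, 4 points of LBR are open, and 2 points of LMNA are red.

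Genes linked to the nuclear envelope in other ways were examined for comparison. These include enzymes, kinases and membrane-sealing genes as well as envelope proteins, and do not describe the compartment alone. They were listed in 7 functional groups, of which 48 genes had a value a library and 40 were tested. Of the 40, 1 was altered, against 16.7% of all tested genes, and 15 had no overlap of libraries, against 39.9%. At an unadjusted p under 0.05 from limma there were 11 of the 40, against 33.6%. The altered gene was CHMP2A, a subunit of the ESCRT-III complex that seals membranes. It measured 60.5, 63.6 and 60.4 FPKM in control and 74.0, 71.4 and 75.2 FPKM in Ras-induced cells, a log2 fold change of 0.25 (adjusted p = 0.0478 from limma). That call held in 1 of the 14 alternatives (adjusted p from 0.0479 to 0.2005). The median log2 fold change of the 40 genes was 0.02, with 17 below 0 and 23 above, and 62.7% of all tested genes were above 0.

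By function, 0 of the 4 other LEM-domain genes were altered, beside 16.7% of all tested genes, and 0 of the 4 had an unadjusted p under 0.05 in limma, beside 33.6%, with EMD, which encodes emerin, at -0.25 and LEMD2 at 0.08 on the log2 scale. Of the 9 inner membrane and torsin genes, 0 were altered and 4 had an unadjusted p under 0.05 in limma, beside 33.6% of all tested genes. Among those 9, TMEM194B measured 3.99, 3.48 and 3.05 FPKM in control and 1.48, 1.80 and 2.43 FPKM in Ras-induced cells. Its log2 fold change was -0.64 (adjusted p = 0.0510 from limma), and it passed in 5 of the 13 alternatives that tested it. The 6 genes listed under prelamin processing, not all of them enzymes, had a median log2 fold change of 0.09 with 0 altered (2 of 6 at an unadjusted p under 0.05, beside the same 33.6%), and ZMPSTE24, the protease that trims prelamin A, was at 0.08. LEMD2, ZMPSTE24 and, among the sterol reductases, DHCR7 took both signs over the alternatives. The 2 sterol reductases related to LBR, DHCR7 and TM7SF2, were at 0.01 and 0.29, with 0 altered and 0 at an unadjusted p under 0.05. The BAF kinases VRK1, VRK2 and VRK3 were at 0.17, -0.18 and -0.07, with 0 altered and 0 at an unadjusted p under 0.05. The 2 other SUN and KASH genes tested, SYNE3 at -0.31 and SPAG4 at 0.63, were not altered and had no unadjusted p under 0.05. The 14 ESCRT-III genes had a median of 0.21, beside 0.10 over all tested genes, with 10 of 14 above 0, beside 62.7%. At an unadjusted p under 0.05, 5 of the 14 were higher, beside 22.9%, and 1 passed adjustment, beside 11.0%.

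**Figure D5:**
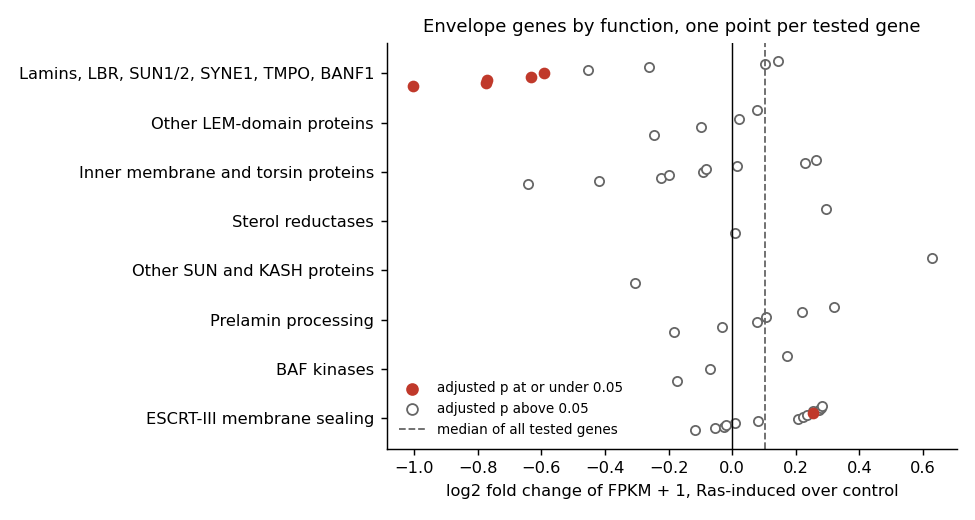
Log2 fold change of FPKM + 1, Ras-induced over control, for each tested gene linked to the nuclear envelope, in rows by function, filled red where the adjusted p was at or under 0.05. The dashed line is the median of all tested genes at 0.10. The top row holds 5 red points from -1.005 to -0.59, and the other rows hold 1, CHMP2A at 0.25.

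HRAS (endogenous and transgene reads were not separated) measured 1140.3 to 1176 FPKM in control and 1439 to 1847 FPKM in Ras-induced libraries. Its adjusted p was 0.0431 from limma and ran from 0.0193 to 0.166 over the 14 alternatives, 3 of which passed. Both groups carry the construct and tamoxifen acts on the fused protein, so HRAS RNA alone cannot check the labels. Of 12 genes that mark mitotic cells, all had a log2 fold change below 0, where 62.7% of all tested genes were above it, and 6 passed the test as lower (1 to 7 over the alternatives), where 5.67% of all tested genes did, with a median log2 fold change of -0.28, and their summed level was 2366 to 2437 FPKM in control and 1870 to 2101 FPKM after Ras induction. Of these 12, CDK1 was at 1.56 to 5.93 FPKM and TOP2A at 4.93 to 10.3 over the 6 libraries. All others were at 47.3 FPKM or more in every library. The part of these mitotic genes in the falls of LMNB1, LMNB2, LBR, SUN2 and TMPO was not tested. All 8 fibroblast markers were above 7 FPKM in every library, and 3 of the 8 passed the test as lower, COL1A2, THY1 and LUM, beside the same 5.67%. COL1A1 and COL3A1 also had no overlap between the groups, with log2 fold changes of -1.43 and -1.25 and adjusted p-values of 0.0501 and 0.0553 from limma, and they passed in 7 and 4 of the 14 alternatives. VIM, FN1 and PDGFRB overlapped between the groups, at 0.06, 0.02 and -0.04 on the log2 scale, and were not altered. The median log2 fold change of the 8 markers was -1.22, and their summed level was 5396 to 6310 FPKM in control and 3941 to 5299 FPKM after Ras induction. Their part in the falls of the envelope genes was not tested either. Of the markers of other cells, PECAM1 and CD3E were at 0 in every library, and CDH1, CDH5, VWF, KDR, PTPRC, CD14 and CD79A stayed under 0.5 FPKM. EPCAM was lower in all Ras-induced libraries, at 0.167 to 0.424 against 0.880 to 1.80 FPKM, where 39.9% of all tested genes had no overlap. Its mean was under the minimum for testing. KRT5 and KRT14 were at 7.28 to 18.7 FPKM, CLDN4 at 2.26 to 7.32 and CD68 at 25.2 to 35.6, and none of these 4 was altered (CD68 alone had an unadjusted p under 0.05 in limma).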

How the data were processed

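Poly(A) RNA of 6 samples of mitotic cells was sequenced as paired-end reads. The authors trimmed the reads (Trim Galore 0.3.0, per the labels), aligned them to hg19 (TopHat2, guided by Ensembl 73 junctions) and deposited FPKM values from Cufflinks, 1 column a library. Columns name the group and a number but not the sample, so libraries served as replicates of their group, and their scaling between libraries is not given in the sources used here. The study states that the experiment was repeated independently. The labels do not tie libraries to cultures, so p-values measure the spread between these libraries. Depth is known only as steps between low FPKM values, from 0.849 to 1.17 of the first control library. A further 18 unnamed columns were not used, and 120 genes with over 6 values were left out. The authors' deposited cuffdiff comparison (group FPKM, fold changes, p- and q-values) was not used.

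Count models were not used, since FPKM are length- and depth-scaled. The test was limma 3.58.1 on log2(FPKM + 1), restricted to genes averaging 1 FPKM or more (R 4.3.3, trend, two-sided). It was run first on simulated data, where fewer genes changed than were called here. Those changes were larger than most of the members showed, so smaller changes were not covered. Fold changes are on that scale, which understates low genes. Ratios were tested by exact permutation over libraries (SciPy 1.17.1), and SYNE1 to SYNE2, also planned, could not be computed. Coordinates are from GENCODE 44 lifted to GRCh37, the build of hg19. Named genes were the 10 listed, altered envelope genes (at most 3 each way; TMEM194B and examples without a call were added after their values were seen), HRAS, marker genes, genes sharing sequence or position with a member (chosen after their values were seen) and the 5 genes nearest LMNB1. The members, lists and tests were chosen with earlier results of these data known.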

Additional observations from a re-analysis of the deposited data

How the results depend on the processing

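Alternatives were a pseudocount of 0.1, no filter or a mean of at least 5 FPKM, quantile, upper-quartile and median scaling, no trend in limma, the replicate block and each library left out. The number of altered genes among the 9 stayed between 4 and 6, while the altered share of all tested genes ran from 5.17% without a filter to 21.4% under the 5 FPKM minimum, and from 6.15% to 13.4% without each library. It was 1, LMNB1, under an added minimum change of 1 on the log2 scale in either direction, beside 3.92% of all tested genes. No symbol among the 9 was repeated. BANF1, not altered in any fit, went to -0.0066 after upper-quartile scaling. All 6 ratios kept their direction in the 8 alternatives run for them (the pseudocount, quantile normalization and each library left out). Among the 40 other envelope genes limma altered 1 as reported (11 at an unadjusted p under 0.05, beside 33.6% of all tested genes), 0 under the 5 FPKM minimum (9 of 37, beside 37.4%), 0 with the replicate block (14 of 40, beside 35.8%) and between 0 and 2 without each library (8 to 13 of 40, beside 26.5% to 32.1%). The 2 were EMD and ICMT, without the third control library. TMEM194B replaced CHMP2A in 5 alternatives.

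Same-numbered libraries of the 2 groups deviated from their group means with correlations of -0.003, 0.043 and 0.048 across genes, so the numbers were not taken as pairs. With the number as a block, 5 of the 9 genes were altered, the same 5 as without it, beside 16.5% of all tested genes. Absolute depth is unknown, no intervals for counting error were made, and isoforms were not resolved. Across tested genes the median change, 0.10 on the log2 scale as deposited, went to 0.003 after median centring.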

Other observations

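The genes whose profile over the 6 libraries lay nearest that of LMNB1 were named by the smallest distance between profiles of log2(FPKM + 1), each centred on its own mean. Over 13992 other tested genes these were IQGAP3, a scaffold protein of the cell cortex, RP11-229P13.23, SUSD5, RP11-431J24.2 and PEAR1, at distances of 0.162, 0.178, 0.184, 0.203 and 0.222. IQGAP3 measured 45.1, 43.6 and 56.6 FPKM in control and 21.99, 25.2 and 26.1 FPKM in Ras-induced libraries. In this order SUN2 stood at place 34, LBR at 85, TMPO at 140 and LMNB2 at 196, whereas SUN1 stood at 656, LMNA at 1267, BANF1 at 6253 and SYNE1 at 8098. The distance is a description over 6 libraries that differ mainly by group, with no test.

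The third control library held the highest control value for 6 of the 9 envelope genes (LMNB1, LMNB2, LBR, SUN1, SUN2 and TMPO) and the lowest for the other 3 (LMNA, SYNE1 and BANF1). Over all tested genes it was the highest control for 31.0% and the lowest for 46.2%. Without that library LMNB1, LMNB2, LBR, SUN2 and TMPO were still altered, with log2 fold changes of -0.92, -0.58, -0.64, -0.66 and -0.55.

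The lncRNA TMPO-AS1, which overlaps TMPO on the opposite strand, was listed at 0.872, 1.14 and 0.851 FPKM in control and 0.484, 0.486 and 0.362 FPKM in Ras-induced libraries. Its mean was under the minimum for testing. Without strand, its reads and those of TMPO in the overlap cannot be told apart. 2 lncRNA entries that overlap SUN2 on the opposite strand, ENSG00000230149 and ENSG00000244491, were lower in all Ras-induced libraries, at 7.74 to 9.16 against 12.2 to 14.6 FPKM and at 29.1 to 45.2 against 48.1 to 68.6 FPKM. A further such entry with values, ENSG00000225450, was at 0 in all but the third Ras-induced library, at 0.568 FPKM. Of all tested genes, 39.9% had no overlap between the groups in either direction. Of the protein-coding genes that overlap SUN2, DNAL4, on the same strand, was higher in all Ras-induced libraries, at 6.95 to 8.69 against 6.24 to 6.70 FPKM. GTPBP1, on the opposite strand, overlapped between the groups, at 5.04 to 7.84 against 3.78 to 6.85 FPKM.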
